A study of Pimephales promelas with 51 samples.

Results

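The nuclear genes of the respiratory chain were examined in whole larvae of the fathead minnow (Pimephales promelas), a freshwater fish common in toxicology. Members were all genes whose name begins with the symbol of a subunit family of complexes I to V and that averaged at least 10 reads per library. This rule used names and read depth only, and it left 88 of the 98 matching genes, among 36695 genes in the count tables. The members were nonetheless chosen with earlier results of these data known. By complex they were 36 genes of complex I, 4 of complex II, 3 assembly factors of complex II, 8 of complex III, 20 of complex IV, 15 of complex V and 2 inhibitors of complex V. The rule's letters admit the complex II assembly factors sdhaf2, sdhaf3 and sdhaf4, which are not subunits, and these are kept apart below. Of the 88 names, 61 stand in the tables themselves and 27, among them all 8 of complex III and 17 of complex IV, were read from gene numbers through a RefSeq table.

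Larvae of the GLTED-Duluth-wt strain, aged 5-6 days post fertilisation, were held for 24 h in 1 of 8 concentrations of dexamethasone, in 1 of 8 concentrations of fluticasone propionate, or in DMSO, the solvent. Both compounds are synthetic glucocorticoids, which activate the glucocorticoid receptor. Dexamethasone was labelled 0.008, 0.025, 0.08, 0.25, 0.8, 2.5, 8 and 25 µM, and fluticasone propionate 0.003, 0.006, 0.01, 0.019, 0.034, 0.06, 0.1 and 0.19 µM. Measured concentrations were 0.0066 to 23.7 µM for dexamethasone and 0.0019 to 0.0597 µM for fluticasone propionate. Each of the 17 groups had 3 libraries, lettered A to C, each from RNA of pooled whole bodies, so the tissue that a transcript came from is not resolved. Nothing in the labels says that the letters are separate exposures, so the p-values reflect only differences among libraries, which may be technical.

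Libraries held 1316614 to 2097358 reads in genes, and 22.6 to 33.6% of all reads, with a median of 26.3%, were assigned to no counted gene. Those are called reads outside genes. They exceeded 30% in 6 dexamethasone libraries and 1 fluticasone propionate library. The whole-body label was checked with marker genes of 8 tissues: muscle, heart, liver, nerve, retina, gut and ionocyte genes were detected in every group. Among them the heart gene cmlc1 was an exception, at 0 in every library of several groups, DMSO included. Of the 3 red blood cell genes found by name, hbae3, a globin, was at 0, while the other 2 were detected.

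The respiratory chain is the set of inner-membrane complexes that passes electrons to oxygen and uses the energy to make ATP. Complex I takes electrons from NADH and complex II from succinate, and both pass them through coenzyme Q to complex III. That complex hands them on to cytochrome c, complex IV reduces oxygen, and complex V makes ATP from the proton gradient. A small share of the subunits is encoded in the mitochondrial genome and the rest in the nucleus. Glucocorticoids are known in mammals for setting fuel use in liver and muscle, tissues rich in mitochondria. The roles of single genes below are those known from mammals.

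Complex V took the largest share of the reads. Libraries were made from transcript 3′ ends, which give about 1 read per transcript whatever its length, so levels in CPM (read counts scaled to a common library size, TMM-normalised) can be set side by side, although a poorly annotated 3′ end lowers a gene's count. The 15 complex V genes took 41.8% of all reads in the 88 genes, complex I 24.5%, complex IV 21.2%, complex III 8.81% and complex II 2.61%. The median gene level was 246 CPM in complex V, 154 in complex IV, 112 in complex III, 96.01 in complex I and 90.1 in complex II, and 9.39 CPM among the complex II assembly factors.

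In complex V, atp5f1b, the catalytic beta subunit, had the highest level of all, at 1316 to 2019 CPM with a mean of 1683 CPM over the 51 libraries. It alone took 10.5% of the reads in the 88 genes. The next 2 genes, atp5l (subunit g, mean 1015 CPM) and atp5mc3b (a copy of the proton-carrying c subunit, mean 911 CPM), also belong to complex V. Over all libraries their ranges overlapped, from 684 to 1285 CPM for atp5l and from 606 to 1170 CPM for atp5mc3b.

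In the other complexes the leading genes were lower. The 2 highest in complex III were uqcrb, a subunit close to the coenzyme Q site (554 CPM), and uqcrh, the hinge protein beside cytochrome c1 (283 CPM). In complex IV they were cox6c (494 CPM) and cox7a2a (466 CPM), both small membrane subunits. Complex I was led by ndufs7, the iron-sulfur subunit that passes electrons to coenzyme Q (417 CPM), and ndufb3 of the membrane arm (288 CPM), and complex II by sdha, the flavoprotein that oxidises succinate (181 CPM), and sdhdb, a membrane anchor (116 CPM).

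Where several copies of a subunit passed the minimum, their mean levels differed widely. Of the c subunit copies, atp5mc3b stood at 911 CPM, atp5mc3a at 243 CPM and atp5mc1 at 191 CPM. Of the cox4 copies, which code for the largest nuclear subunit of complex IV, cox4i1 had 163 CPM, cox4i2 29.7 CPM and cox4i1l 17.1 CPM. The pair cox5aa and cox5ab had 394 and 174 CPM, the pair cox6b2 and cox6b1 had 267 and 23.0 CPM, and cox7a2a, cox7a2l and cox7a2b had 466, 149 and 13.9 CPM. The ndufa4 copies, now counted with complex IV, had 159 CPM (ndufa4a), 34.1 CPM (ndufa4b) and 28.1 CPM (ndufa4l2a). Close copies may share reads that the counting assigned to neither or split.

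The 10 other genes that matched by name fell under the minimum, and a low count here may also come from a 3′ end outside the annotation. Both rows of ndufa5 held no read in any library. The others, by mean reads per library, were ndufs3 (0.0196), uqcr10 (0.353), ndufs8b (1.02), cox5b2 (4.29), cox7a1 (4.35), cox6a2 (5.20), cox8b (6.14) and ndufb5 (7.90). Just inside the minimum lay sdhaf3 at 8.10 CPM, sdhaf2 at 9.39 CPM, and 2 genes both named ndufa3, at 13.6 CPM and, for the copy LOC120462672, 12.4 CPM.

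At 0.8 µM dexamethasone 13 of the 88 genes fell and 0 rose against DMSO. They were 3 of the 36 complex I genes, 1 of the 4 complex II genes, 5 of the 20 complex IV genes and 4 of the 15 complex V genes, and 0 of the 8 complex III genes passed the test. Over all genes tested, 2.47% were called in that comparison, 206 higher and 241 lower. The log2 fold changes of the 88 genes had a median of -0.35, with 83 below 0, beside a median of 0.00 over all genes. In 51 of the 88 the unadjusted p was under 0.05 and the gene lower, and in 0 higher. Counts at an unadjusted p, here and below, are descriptions, since the share of all genes at that threshold is not set beside them.

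The smallest adjusted p was in complex IV. Subunit 6A1, the widely expressed form of a regulatory subunit, is coded by cox6a1, which stood at 43.8, 78.0 and 63.1 CPM in the 0.8 µM libraries, against 117, 109 and 86.4 CPM in the DMSO libraries. Every treated library was below every DMSO library, in a gene picked by this same comparison. The log2 fold change was -0.75 ± 0.15 (SE, adjusted p = 0.00587). It was also the 1 member called at 2.5 µM, where it had 66.1, 63.3 and 63.8 CPM (log2 fold change -0.70 ± 0.16, adjusted p = 0.0337). At 8 and 25 µM its mean was 85.8 ± 16.02 and 87.98 ± 11.8 CPM (SD, n = 3 each), beside 104 ± 15.96 CPM in DMSO, and neither difference passed the test. At 0.008, 0.025, 0.08 and 0.25 µM it averaged 93.7, 91.2, 91.2 and 73.5 CPM. The plot of cox7a2l and cox6a1 by library shows these values.

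The other 4 called genes of complex IV, picked by this same comparison, lay below DMSO in all 3 libraries at 0.8 µM. The first, ndufa4a, once assigned to complex I and now to complex IV, had 88.9, 126 and 120 CPM, against 166, 172 and 174 CPM in DMSO (log2 fold change -0.61 ± 0.14, adjusted p = 0.0156). For cox8a, a small membrane subunit, values were 124, 167 and 160 CPM, against 211, 229 and 227 CPM in DMSO (-0.56 ± 0.15, adjusted p = 0.0370). The groups did not overlap for cox6b2, at -0.50 ± 0.12, nor for cox4i1, at -0.49 ± 0.13, both log2 fold changes. The share of all genes without overlap is not set beside these, nor beside the groups without overlap named in other paragraphs, so all of them are descriptions. The lowest value of each of the first 3 genes named here, cox6a1, ndufa4a and cox8a, was in library A.

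Of complex V, atp5mc1, a copy of the c subunit, fell the furthest. It had 107, 158 and 133 CPM at 0.8 µM, against 217, 230 and 217 CPM in DMSO, and the log2 fold change was -0.73 ± 0.18 (adjusted p = 0.0244). Its sister copies atp5mc3a and atp5mc3b had log2 fold changes of -0.23 ± 0.19 and -0.28 ± 0.13 and did not pass the test. Whether the copies differ in response was not tested. The other 3 called genes were atp5f1e, the epsilon subunit of the central stalk (-0.54 ± 0.14), atp5md, also called DAPIT, which joins complex V dimers (-0.53 ± 0.13), and atp5mf, subunit f of the membrane part (-0.46 ± 0.13). The most abundant gene, atp5f1b, had 1405, 1646 and 1447 CPM, against 1741, 1816 and 1753 CPM in DMSO, and was not called (-0.24 ± 0.10, adjusted p = 0.172).

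In complex I, ndufab1a, a copy of the mitochondrial acyl carrier protein, had 27.3, 43.3 and 34.4 CPM at 0.8 µM, against 58.0, 60.5 and 59.2 CPM in DMSO. Its log2 fold change was -0.75 ± 0.19 (adjusted p = 0.0221). The 2 others were ndufa8, an accessory subunit facing the intermembrane space (-0.51 ± 0.13, adjusted p = 0.0231), and ndufs6, a zinc-binding accessory subunit (-0.47 ± 0.13, adjusted p = 0.0379). The leading genes of the complex, ndufs7 and ndufb3, had log2 fold changes of -0.10 ± 0.12 and 0.05 ± 0.18 and were not called. Complex II gave sdhb, its iron-sulfur subunit, with 38.1, 40.6 and 63.7 CPM at 0.8 µM, against 85.8, 77.4 and 52.4 CPM in DMSO. These groups overlapped, and the call was close to the threshold (-0.60 ± 0.18, adjusted p = 0.0496).

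The 2 inhibitors of complex V, which block it from breaking down ATP, were not called at 0.8 µM. Values for atp5if1a were 57.8, 65.2 and 72.2 CPM, against 86.4, 75.0 and 87.1 CPM in DMSO (log2 fold change -0.34 ± 0.14, adjusted p = 0.166). For atp5if1b they were 25.4, 52.4 and 41.2 CPM, against 55.1, 51.8 and 42.9 CPM (-0.32 ± 0.20, adjusted p = 0.401).

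**Figure D1:**
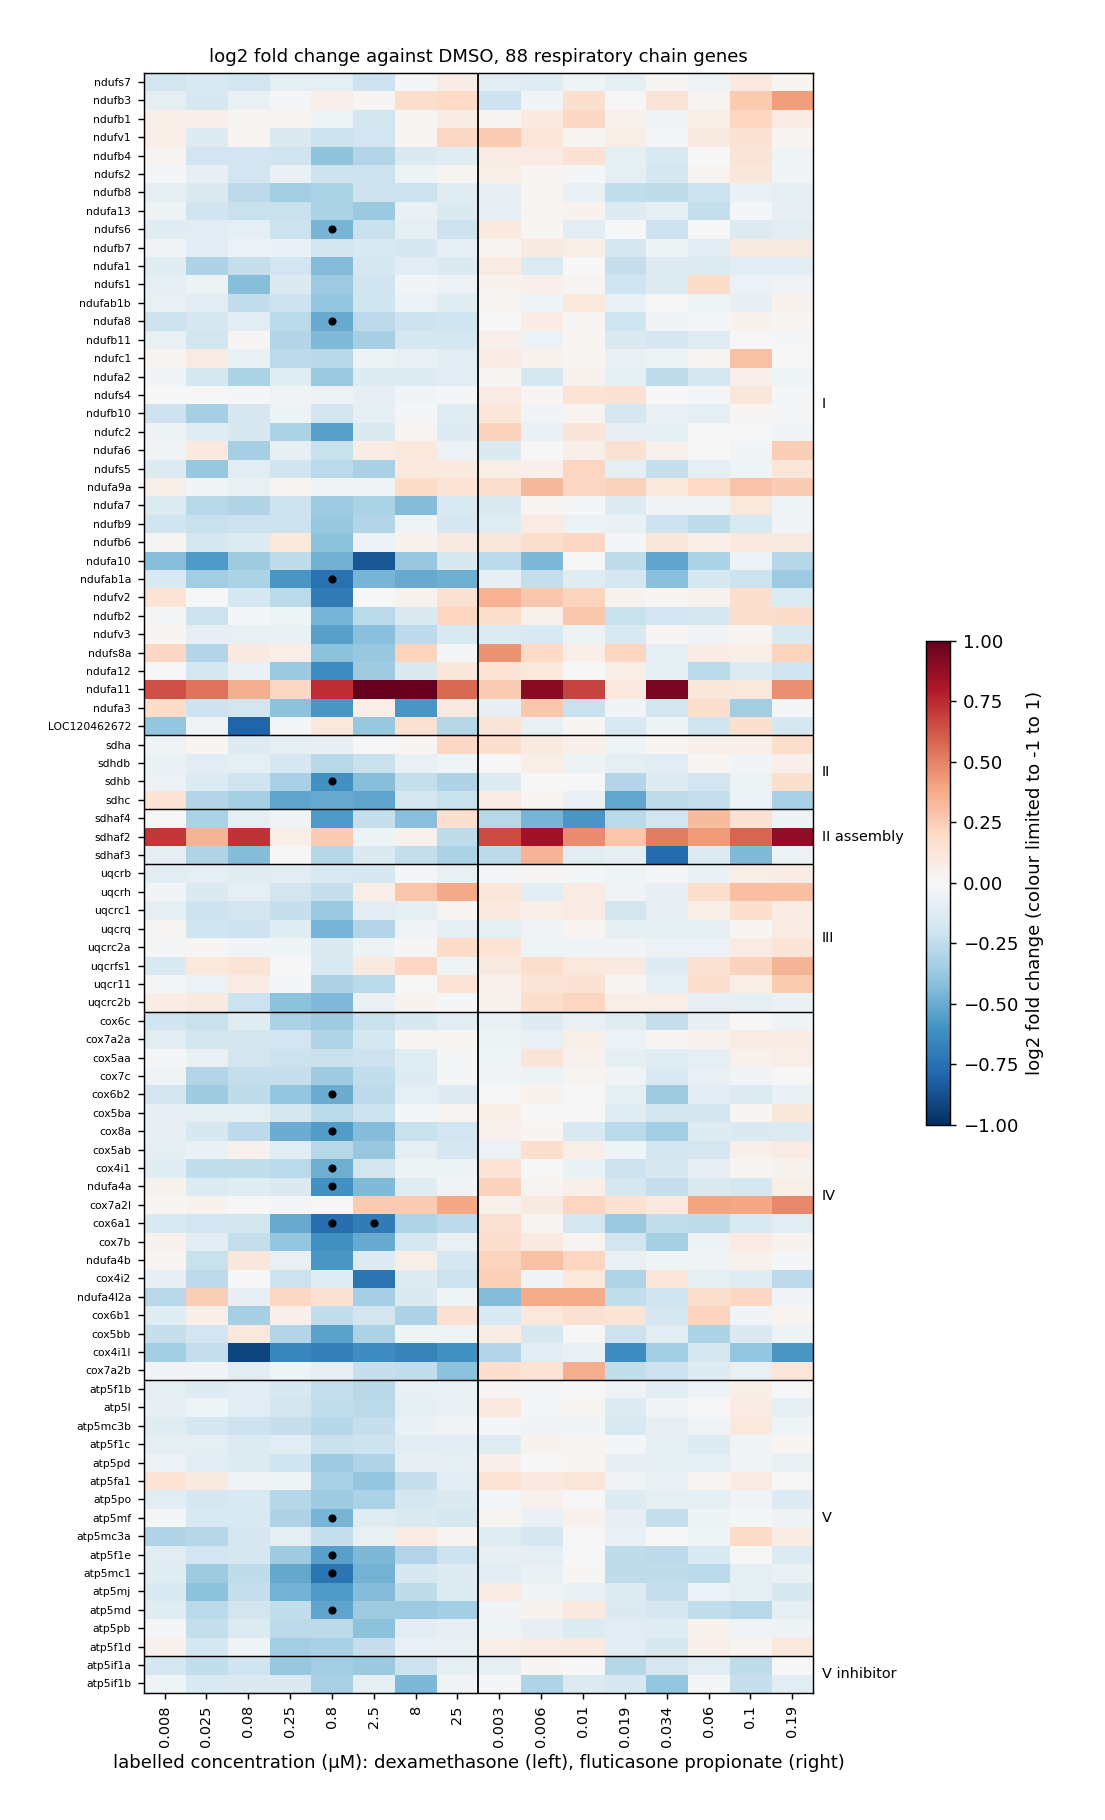
Log2 fold change against DMSO (colour, limited to -1 to 1) of the 88 genes (rows, by complex and then by level) at each labelled concentration in µM (columns, dexamethasone left and fluticasone propionate right), where each cell compares 3 treated with 3 DMSO libraries and a black dot marks an adjusted p under 0.05. The 13 dots at 0.8 µM and the 1 at 2.5 µM dexamethasone are all falls, and the fluticasone propionate side holds 0 dots.

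The calls at 0.8 µM rested on few libraries. The number called was 0 without library A, 18 without library B and 6 without library C of that group, and it was 0 without DMSO library A, 0 without DMSO library B and 4 without DMSO library C. Calls over all genes moved too: against 447 with every library, 32, 578 and 335 genes were called without library A, B and C of the group, and 95, 50 and 168 without DMSO library A, B and C. The median of the 88 log2 fold changes stayed below 0, from -0.44 to -0.25, whichever library was left out.

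Reads outside genes moved with the members' level. They made up 33.6, 28.9 and 28.8% of reads in the libraries A, B and C at 0.8 µM, against 24.5, 25.2 and 25.3% in DMSO. The 88 genes took 1.2545, 1.55 and 1.42% of gene reads at 0.8 µM, against 1.67, 1.70 and 1.65% in DMSO, so library A was the highest in the one and the lowest in the other. With that share as a covariate, 0 members were called at 0.8 µM and the median log2 fold change was -0.02, with 52 of 88 below 0. Over all genes 4 were called in that fit (0.0221%), so 0 of 88 is near the background. By complex that median was -0.01 in complex I, -0.01 in II, 0.09 in III, -0.10 in IV and 0.00 in V. Without the libraries over 30%, a choice made after seeing the data, 7 members were called, 4 of complex IV and 3 of complex V, beside 190 of all genes (0.994%), and the median was -0.25 with 79 of 88 below 0. In all 3 libraries of the group the share lay above that of every DMSO library, so concentration and this share cannot be told apart there. The share had nearly the same mean at 0.25 µM, at 30.4 ± 1.44%, against 30.4 ± 2.76% at 0.8 µM (SD, n = 3 each). Of all genes 0.0166% were called at 0.25 µM, with 0 members, and the members' median log2 fold change was below 0 there too. The part of that share at 0.25 µM was not tested.

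Over the 51 libraries the share of gene reads in the 88 genes and the share outside genes gave Pearson's r = -0.76 and Spearman's rho = -0.74, and r = -0.71 without the 2 libraries farthest from the median. Within the 24 dexamethasone libraries r was -0.83 and rho -0.83, and within the 24 fluticasone propionate libraries r was -0.53 and rho -0.51. Both shares come from the same libraries, so this is a description, and no p is given. By complex, r over all libraries was -0.76 in complex I, -0.75 in II, -0.73 in III, -0.81 in IV and -0.69 in V. The values of each library are shown in the plot of these shares.

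**Figure D2:**
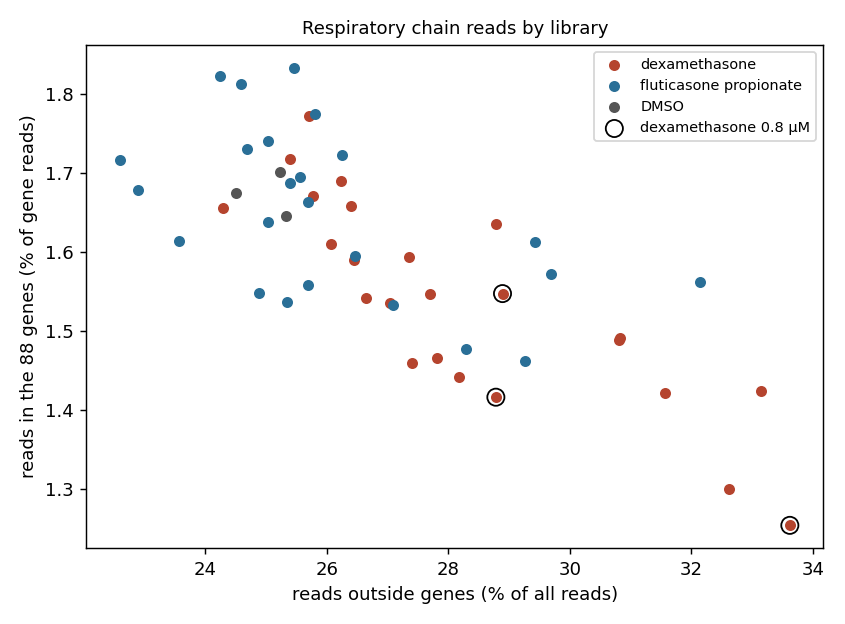
Reads in the 88 genes (vertical axis, % of gene reads) against reads outside genes (horizontal axis, % of all reads), with 1 point per library coloured by treatment and the 3 libraries at 0.8 µM dexamethasone ringed. The lowest point, at 33.6% outside genes and 1.2545% in the 88 genes, is library A at 0.8 µM, and the 3 DMSO points sit at 24.5 to 25.3% and 1.65 to 1.70%.

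Tissue markers moved with the same group. The summed level of the 4 fast muscle genes found by name was 10310 to 12730 CPM at 0.8 µM, against 13970 to 14040 CPM in DMSO, and 1 of the 4, the myosin light chain gene mylpfa, was called lower (-0.34 ± 0.09, adjusted p = 0.0304). The 4 liver genes summed to 2588 to 3837 CPM, against 3973 to 4122 CPM in DMSO, with 0 called. The 4 gut genes summed to 380 to 440 CPM, against 552 to 580 CPM, and fabp6, a bile acid binding protein of the gut, was called lower (-0.68 ± 0.13, adjusted p = 0.00314). The 4 retina genes summed to 1350 to 1454 CPM, against 1593 to 1849 CPM, and the 5 nerve genes to 2463 to 2626 CPM, against 2680 to 2781 CPM, with 0 called in either. Heart (4 genes), red blood cell (3) and ionocyte (2) sums overlapped DMSO. None of the muscle, liver, gut, retina, nerve or ionocyte genes was at 0, and cmlc1 of heart was at 0 in all 3 DMSO libraries. In RNA of whole bodies fewer cells of a type and less RNA per cell cannot be told apart, and the part of these tissues in the members' fall was not tested.

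At the other concentrations of dexamethasone few members were called. At 2.5 µM, where 0.133% of all genes were called, 1 of 88 fell (cox6a1, above) and 0 rose; the median was -0.23, with 81 below 0. That count was 8 without the libraries over 30% outside genes, 0 with the covariate, and 0 without any 1 of libraries A, B and C of that group or of DMSO libraries A and B. In that group the share outside genes was 27.4 to 28.2%, above the 24.5 to 25.3% of the DMSO libraries. Concentration and this share cannot be told apart at 2.5 µM either.

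At 25 µM, where 1.32% of all genes were called, 0 of 88 members were called by edgeR and 0 by DESeq2, and 2 higher and 2 lower had an unadjusted p under 0.05. The median was -0.08, with 64 below 0. At 8 µM 0.194% of all genes and 0 members were called by either tool, 7 members had an unadjusted p under 0.05, 6 of them lower, and the median was -0.09. At 0.25 µM 0.0166% of all genes and 0 members were called by either tool, 17 were lower at an unadjusted p under 0.05, and the median was -0.19, with 78 below 0. At 0.08 and 0.025 µM 0% of all genes were called, 6 members each were lower at an unadjusted p under 0.05, and the medians were -0.15 and -0.15. At 0.008 µM 0% of genes were called, 0 members had an unadjusted p under 0.05, and the median was -0.07. DESeq2 called 0 members at these 3 concentrations too. The lowest share outside genes at 0.008, 0.025, 0.08, 0.25 and 8 µM was 25.77, 25.4, 25.7, 28.79 and 26.24%. Each lay above the highest DMSO library, at 25.33%, so concentration and this share cannot be told apart in those groups. At 25 µM the share was 24.3 to 26.65% and overlapped DMSO.

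With fluticasone propionate 0 of the 88 genes were called at any of the 8 concentrations by edgeR. Of all genes, 0.00559% were called at 0.003 µM, 0% at 0.006, 0.01, 0.019 and 0.034 µM, and 0.0168% at 0.06 µM. The share called was 0.0727% at 0.1 µM, and 0.246% of genes passed at 0.19 µM. The medians of the 88 log2 fold changes in the same order were 0.03, 0.02, 0.03, -0.10, -0.11, -0.06, 0.02 and -0.01. Members with an unadjusted p under 0.05 numbered 2, 2, 2, 3, 5, 1, 4 and 6. DESeq2 called 1 member, cox7a2l, at 0.19 µM and 0 at the other 7. The lowest medians, at 0.019 and 0.034 µM, were in the 2 groups with the highest shares outside genes for this compound, 29.1 ± 3.41% and 27.1 ± 3.11% (SD, n = 3 each), beside 25.0 ± 0.45% in DMSO, and the part of that share was not tested for these groups.

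The share of gene reads in the 88 genes followed the same course. In DMSO it was 1.67 ± 0.03% (SD, n = 3 in this and each group below), and from 0.008 to 25 µM dexamethasone it was 1.61 ± 0.06, 1.56 ± 0.15, 1.56 ± 0.24, 1.52 ± 0.11, 1.41 ± 0.15, 1.46 ± 0.01, 1.61 ± 0.11 and 1.60 ± 0.06%. With fluticasone propionate it stayed between 1.57 ± 0.08% at 0.034 µM and 1.70 ± 0.04% at 0.003 µM. The lowest mean of complex I (0.350 ± 0.033%), II (0.0369 ± 0.0033%), III (0.125 ± 0.011%), IV (0.291 ± 0.027%) and V (0.590 ± 0.072%) each stood at 0.8 µM dexamethasone. The DMSO means were 0.404, 0.0430, 0.141, 0.360 and 0.708% in the same order. At the highest concentrations the mean of complex III was 0.146 ± 0.007% with 25 µM dexamethasone and 0.154 ± 0.004% with 0.19 µM fluticasone propionate, against 0.141 ± 0.001%. The plot by complex shows every library.

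**Figure D3:**
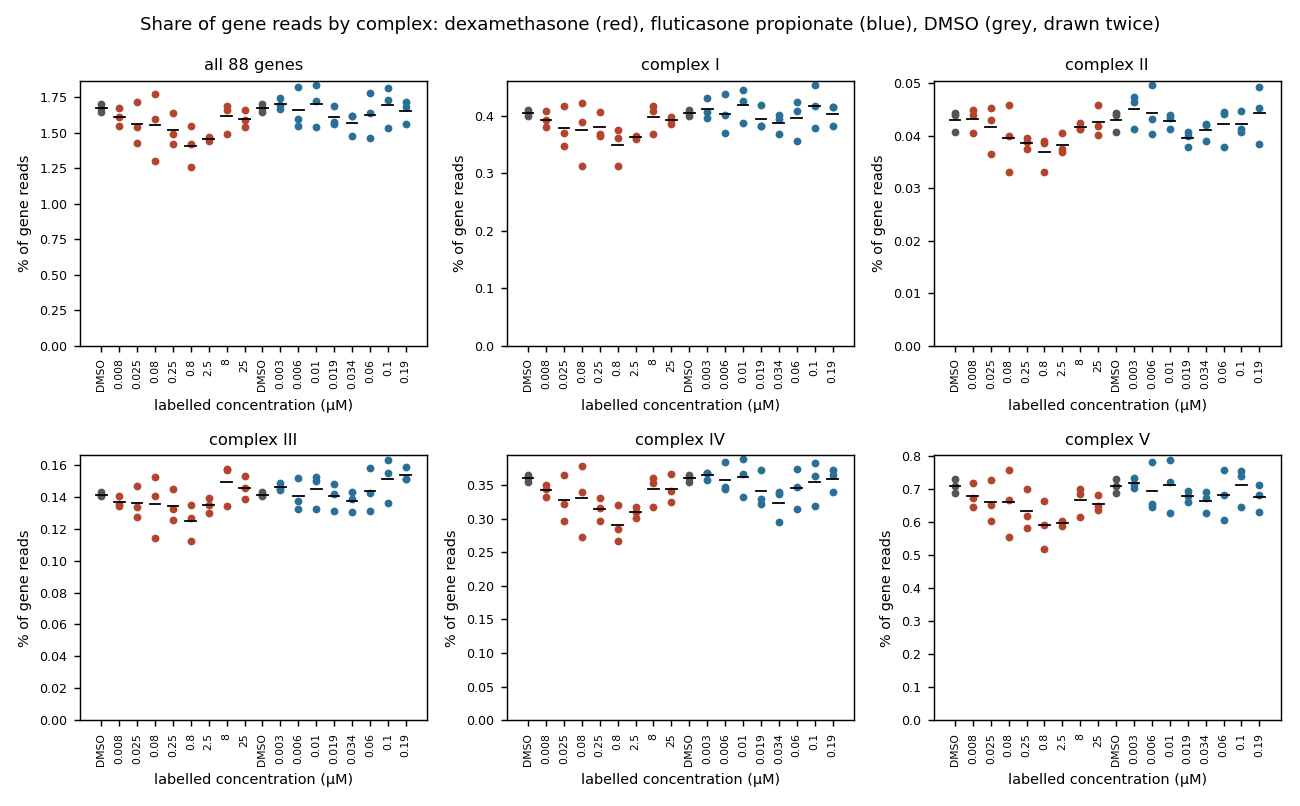
Share of gene reads (vertical axis, %, from 0) in all 88 genes and in each complex, by labelled concentration in µM, with 1 point per library and a bar at the mean of 3 libraries; DMSO stands at the left of each compound's series. In all 6 panels the lowest mean is at 0.8 µM dexamethasone, where all 88 genes together took 1.41% of gene reads.

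In complex IV, cox7a2l codes for the supercomplex factor that tethers complex III to complex IV. Its level was higher at the upper concentrations of both compounds than at the lower ones. Its mean was 132 ± 13.7 CPM in DMSO, 133, 134, 131, 130 and 131 CPM at 0.008 to 0.8 µM dexamethasone, and then 158, 159 and 173 CPM at 2.5, 8 and 25 µM. With fluticasone propionate the means from 0.003 to 0.19 µM were 136, 141, 155, 146, 141, 174, 173 and 185 CPM. The slope on log10 nominal concentration, fitted in the 24 treated libraries of a compound without DMSO, was 0.11 ± 0.03 log2 units per log10 unit for dexamethasone (adjusted p = 0.0171) and 0.24 ± 0.05 for fluticasone propionate (adjusted p = 0.00436). It was the 1 member called of 88 in each trend, where 2.16% and 1.58% of all genes were called, so that count is near the background.

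At the highest concentrations cox7a2l stood above DMSO in every library but did not pass the adjusted test. The trends that picked the gene include these treated libraries. At 25 µM dexamethasone it had 180, 171 and 168 CPM, against 147, 121 and 127 CPM in DMSO (log2 fold change 0.39 ± 0.12, adjusted p = 0.0951). At 0.19 µM fluticasone propionate it had 180, 201 and 173 CPM (0.48 ± 0.12, adjusted p = 0.0548). The 2 comparisons share the DMSO libraries. With the share outside genes as a covariate the adjusted p was 0.00799 at 25 µM and 0.0226 at 0.19 µM, and both trends stayed called (0.00509 and 0.00172).

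The trend calls of cox7a2l were lost in 5 of 6 fits without the libraries of 1 letter, and in both fits without the top group. Without all libraries of letter A, B or C the adjusted p was 0.131, 0.0785 and 0.179 for dexamethasone, with slopes of 0.09 to 0.12. For fluticasone propionate it was 0.106 without A and 0.0534 without B, with slopes of 0.23 and 0.25, and 0.0400 without C, where it stayed called with a slope of 0.25. Without the highest concentration it was 0.378 for dexamethasone and 0.160 for fluticasone propionate. Its relatives cox7a2a and cox7a2b were not called in either trend, with slopes of 0.04 ± 0.03 and -0.10 ± 0.07 for dexamethasone and 0.08 ± 0.04 and -0.13 ± 0.13 for fluticasone propionate.

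**Figure D4:**
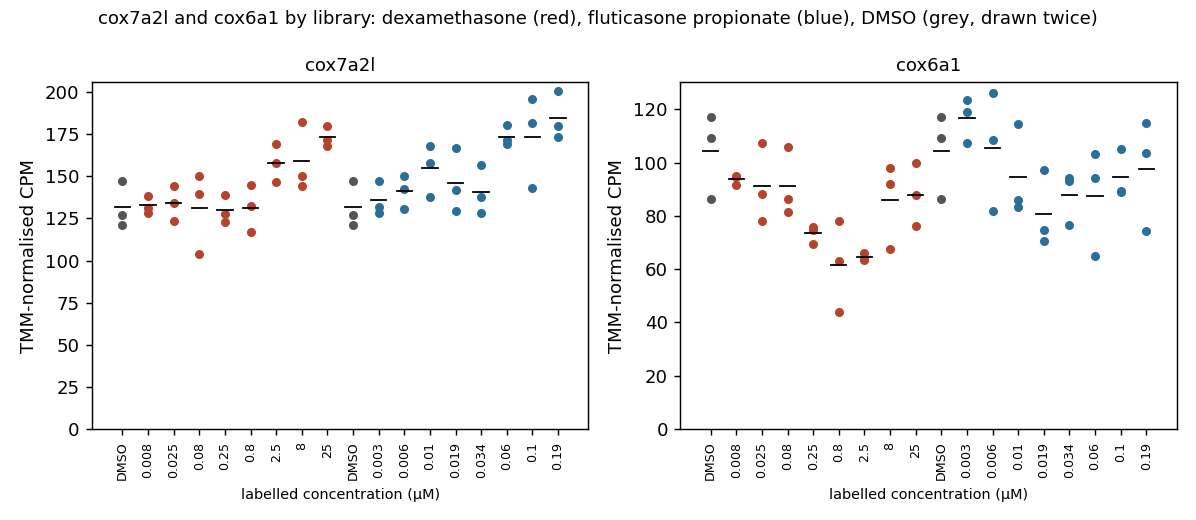
TMM-normalised CPM (vertical axis, from 0) of cox7a2l and cox6a1 by labelled concentration in µM, with 1 point per library and a bar at the mean of 3 libraries, and DMSO at the left of each compound's series. The cox7a2l means reach 173 CPM at 25 µM dexamethasone and 185 CPM at 0.19 µM fluticasone propionate, beside 132 CPM in DMSO, and the cox6a1 means are lowest at 0.8 and 2.5 µM dexamethasone.

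Other members with small unadjusted p at the highest concentrations are given as values, since none passed the test. The hinge gene uqcrh had 316, 394 and 356 CPM at 25 µM dexamethasone and 371, 319 and 324 CPM at 0.19 µM fluticasone propionate, against 263, 265 and 288 CPM in DMSO. The groups did not overlap (log2 fold change 0.38 ± 0.15, adjusted p = 0.286, and 0.30 ± 0.12, adjusted p = 0.494). The gene is listed here for its small p in these same comparisons, which share the DMSO libraries. Levels of sdha were 191, 218 and 204 CPM at 25 µM, against 173, 168 and 190 CPM in DMSO (0.20 ± 0.11, adjusted p = 0.554). On the low side at 25 µM were ndufab1a (-0.49 ± 0.19), atp5md (-0.34 ± 0.13) and sdhb (-0.31 ± 0.17). At 0.19 µM the members below 0 with the smallest unadjusted p were ndufab1a (-0.36 ± 0.18), cox4i1l (-0.58 ± 0.29) and atp5po, the stalk subunit OSCP (-0.13 ± 0.10). On the high side sdhaf2 stood at 0.89 ± 0.35 with 10.4, 13.9 and 15.1 CPM, against 7.39, 9.31 and 4.08 CPM in DMSO.

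For the 2 highest genes of each complex at the highest concentrations, uqcrh is given above and the others follow. None of them passed the test. Log2 fold changes at 25 µM dexamethasone and at 0.19 µM fluticasone propionate were -0.06 ± 0.10 and 0.00 ± 0.09 for atp5f1b, -0.07 ± 0.14 and -0.10 ± 0.11 for atp5l, -0.11 ± 0.11 and -0.05 ± 0.12 for cox6c, and 0.02 ± 0.13 and 0.08 ± 0.10 for cox7a2a. They were -0.07 ± 0.10 and 0.07 ± 0.09 for uqcrb, 0.07 ± 0.12 and 0.02 ± 0.13 for ndufs7, 0.20 ± 0.11 and 0.17 ± 0.11 for sdha, and -0.04 ± 0.13 and 0.05 ± 0.13 for sdhdb. Those of ndufb3 were 0.20 ± 0.18 and 0.41 ± 0.19, the second with an unadjusted p of 0.0394. The least even member was ndufa11, a membrane subunit of complex I, which ran from 4.69 to 51.1 CPM over the 51 libraries and from 12.5 to 29.3 CPM within DMSO, so its log2 fold changes of 0.58 ± 0.54 and 0.46 ± 0.63 were close to or under their SE.

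The compounds were compared directly where measured concentrations lay closest, which gave 3 pairs of groups. Calls were found between dexamethasone labelled 0.08 µM (measured 0.055 µM) and fluticasone propionate labelled 0.19 µM (measured 0.0597 µM). There 2 of 88 members were called, both lower with dexamethasone, beside 0.344% of all genes, and the median log2 difference was -0.16, with 80 of 88 below 0. Complex I accessory subunit ndufa6, which binds the acyl carrier protein, had 54.5, 63.5 and 70.2 CPM with dexamethasone, against 80.5, 105 and 99.9 CPM with fluticasone propionate (log2 difference -0.58 ± 0.14, adjusted p = 0.0297). For cox7a2l the values were 104, 139 and 150 CPM with dexamethasone, against 180, 201 and 173 CPM with fluticasone propionate (-0.48 ± 0.12, adjusted p = 0.0365). In both genes, which were picked by this same comparison, every dexamethasone library was below every fluticasone propionate library. These p-values are adjusted over the genes of 1 pair, and over the genes of all 3 pairs together they were 0.0803 for ndufa6 and 0.0963 for cox7a2l, so that neither passed the threshold.

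In this pair reads outside genes made up 25.7 to 32.6% of reads with dexamethasone and 22.6 to 25.7% with fluticasone propionate. Compound and this share cannot be told apart there. The 2 calls were lost in several fits without 1 library and in the fit with that share as a covariate. Neither was called without dexamethasone library A (ndufa6 -0.50, adjusted p = 0.301; cox7a2l -0.34, adjusted p = 0.502) or with the covariate (ndufa6 -0.48, adjusted p = 0.159; cox7a2l -0.39, adjusted p = 0.160). Neither was called without dexamethasone library B or fluticasone propionate library B or C, where the log2 differences were -0.60, -0.51 and -0.56 for ndufa6 and -0.53, -0.41 and -0.53 for cox7a2l. Without fluticasone propionate library A only ndufa6 was called of the pair (-0.69, adjusted p = 0.0128), and without dexamethasone library C both were.

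In the other 2 pairs 0% of all genes and 0 members were called by edgeR, and 0 members by DESeq2. For dexamethasone 0.025 µM (measured 0.0189 µM) against fluticasone propionate 0.06 µM (measured 0.0158 µM), 6 members were lower at an unadjusted p under 0.05 and the median log2 difference was -0.08. For 0.008 µM (measured 0.0066 µM) against 0.019 µM (measured 0.0072 µM), 1 was higher and the median was 0.02. For cox7a2l the log2 differences were -0.36 (95% interval -0.59 to -0.13) and -0.13 (-0.37 to 0.11), and for ndufa6 they were 0.10 (-0.18 to 0.37) and -0.19 (-0.47 to 0.08). In 85 and 84 of the 88 members the interval lay within 1 log2 unit of 0 on both sides. Missing the threshold does not show that the compounds act alike at these concentrations.

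Around the complexes, a list of genes for mobile carriers and adenine nucleotide exchange was read. It also holds the uncoupling protein genes ucp1, ucp2 and ucp3, the genes slc25a3a, slc25a3b and slc25a5, and the genes vdac1, vdac2 and vdac3. This list and those below were chosen with earlier results of these data known. Of the 12 measured genes on it, 4 rose and 0 fell at 25 µM dexamethasone, beside 1.32% of all genes called in either direction. The list's median was 0.28, beside -0.08 for the 88 members and 0.00 for all genes. Cytochrome c (cycsb), which shuttles electrons between complexes III and IV, had 155, 214 and 201 CPM, against 135, 127 and 117 CPM in DMSO (log2 fold change 0.57 ± 0.13, adjusted p = 0.00523). The ADP/ATP carrier slc25a6 had 187, 182 and 175 CPM, against 122, 111 and 127 CPM (0.60 ± 0.12, adjusted p = 0.00168), and its relative slc25a4 had 575, 637 and 610 CPM, against 485, 404 and 512 CPM (0.38 ± 0.10, adjusted p = 0.0498). Uncoupling protein gene ucp2 had 291, 314 and 257 CPM, against 193, 143 and 209 CPM (0.66 ± 0.13, adjusted p = 0.00112). In these 4 genes, which were picked by this same comparison, every library at 25 µM lay above every DMSO library. The share of all genes without overlap is not given, so this adds nothing to the test.

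Of the 11 tested coenzyme Q genes, 1 rose at 25 µM and 0 fell, against the same 1.32% of all genes. That gene, coq10b, codes for a coenzyme Q binding protein and had 91.9, 82.8 and 89.2 CPM, against 38.7, 39.6 and 56.5 CPM in DMSO (log2 fold change 0.98 ± 0.17, adjusted p = 0.000256). Summed levels at 0.8 µM dexamethasone were 3222 to 4551 CPM for the 12 carrier list genes, against 4081 to 4644 CPM in DMSO. For the 13 coenzyme Q genes found by name they were 216.4 to 269.5 CPM, against 238.4 to 265.9 CPM in DMSO. Both sums overlapped DMSO. At 0.19 µM fluticasone propionate 0 genes of both lists were called by edgeR, beside 0.246% of all genes. The values there were 0.70 for coq10b (adjusted p = 0.117), 0.48 for ucp2 (adjusted p = 0.107) and 0.42 for cycsb (adjusted p = 0.493). In the dexamethasone trend slc25a4, slc25a6, ucp2 and coq10b rose, and in the fluticasone propionate trend ucp2 and coq10b rose, with slopes of 0.23 ± 0.06 and 0.33 ± 0.09, where 2.16% and 1.58% of all genes were called. At matched measured concentrations ucp2 was lower with dexamethasone labelled 0.08 µM than with fluticasone propionate labelled 0.19 µM (-0.54 ± 0.13, adjusted p = 0.0326 within that pair). That p lay between those of ndufa6 (0.0297) and cox7a2l (0.0365), which both missed the threshold over the genes of all matched pairs together. By its rank ucp2 misses it as well. Compound and the share of reads outside genes cannot be told apart in that pair.

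Assembly factors insert cofactors and join subunits. Of 36 tested, a list that holds the 3 complex II factors among the members, 0 were called by edgeR at 0.8 µM or 25 µM dexamethasone or at 0.19 µM fluticasone propionate, and 6 were lower at 0.8 µM with an unadjusted p under 0.05. In these comparisons 2.47%, 1.32% and 0.246% of all genes were called, so 0 of 36 is near the background. In the trends cox17, the copper chaperone of complex IV, rose with both compounds (slopes of 0.11 ± 0.03, adjusted p = 0.0154, for dexamethasone and 0.21 ± 0.04, adjusted p = 0.00355, for fluticasone propionate), and lyrm7, which helps insert the iron-sulfur protein of complex III, rose with dexamethasone (0.17 ± 0.04, adjusted p = 0.00957). Of all genes, 2.16% were called in the dexamethasone trend and 1.58% in the fluticasone propionate trend.

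Of 19 tested genes of the TCA cycle, which feeds NADH and succinate to the chain, 1 fell at 0.8 µM dexamethasone, a count that at 2.47% of all genes called is near the background, and the list median was -0.28. It was mdh2, mitochondrial malate dehydrogenase, with 91.4, 134 and 115 CPM, against 165, 170 and 160 CPM in DMSO (log2 fold change -0.53 ± 0.14, adjusted p = 0.0298). None was called at 25 µM or 0.19 µM, where 1.32% and 0.246% of all genes were called, so that too is near the background. Of 13 tested regulators of mitochondrial biogenesis, 0 were called at 0.8 µM, 25 µM or 0.19 µM. With 2.47%, 1.32% and 0.246% of all genes called there, 0 of 13 is near the background. For ppargc1a, the coactivator that drives that programme, log2 fold changes were 0.08, 0.17 and 0.04, and for tfam, which maintains mitochondrial DNA, -0.55 (adjusted p = 0.197), -0.76 (adjusted p = 0.121) and -0.42 (adjusted p = 0.698). The complex III subunit cyc1, which the naming rule does not reach, had log2 fold changes of -0.29, -0.02 and -0.03 in the same order and was not called. Genes of the mitochondrial genome were not analysed here.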

How the data were processed

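Per the labels' protocols, RNA of pooled larval homogenates was made into QuantSeq 3′ libraries with molecular identifiers. Tools named, without roles, in the submitters' processing notes include STAR 2.7.10a and edgeR, with HTSeq 2.0.1, bcl2fastq 2.20.0, MultiQC 1.12 and FastQC. The genome build, and how the identifiers were used, is not given in the sources used here. The authors deposited raw counts per gene, and both tables share the DMSO columns. HTSeq's totals of unassigned reads entered neither library sizes nor tests. Of 17174 LOC-numbered rows, 8751 were in the RefSeq table (assembly fPimPro1.hap1.1, used for names only) and 2292 took a symbol.

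Counts were filtered (filterByExpr, minimum count 10, total 15), TMM-normalised and tested with edgeR 4.0.16 (robust quasi-likelihood, R 4.3.3), adjusted by Benjamini-Hochberg over all genes, with a threshold of 0.05. Each compound's 24 libraries plus DMSO formed 1 fit, trends used the 24 treated libraries, and direct comparisons, between groups whose measured concentrations were close, all 51. Printed CPM use all 51 libraries. SE is the fold change divided by the root of F. Replicate pairs differed beyond sampling noise (chi-square per degree of freedom 1.47 to 3.14). The method was tested on simulated data. Members and lists were chosen with earlier results of these data known. Named genes were the called members (12 with the smallest adjusted p), the 2 highest per complex, the 3 smallest p per direction at the highest concentrations, duplicated subunits and the inhibitors. The called genes ndufs6, sdhb and atp5mf and the uneven ndufa11 were added after their values were seen. Alternatives were DESeq2 1.42.0, other scaling, no filter, a replicate block, a covariate, fewer libraries and measured concentrations.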

Additional observations from a re-analysis of the deposited data

Results flagged for a closer look

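The difference between dexamethasone labelled 0.08 µM and fluticasone propionate labelled 0.19 µM, at close measured concentrations, was called for 2 members and tested directly. It was -0.5837 on the log2 scale for ndufa6 and -0.4774 for cox7a2l, lower with dexamethasone in 3 of 3 libraries in each. Both genes were picked by this same comparison. Neither stayed called once the reads outside genes entered as a covariate (adjusted p of 0.159 and 0.160) or in a fit of the 6 compared libraries alone (0.0982 and 0.142, with log2 differences of -0.58 and -0.47), and adjusted over all 3 matched pairs the p-values were 0.0803 and 0.0963.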

How the results depend on the processing

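With 3 libraries a group, single libraries decided several calls. Leaving out 1 library at a time, the number of members called ranged from 0 to 18 at 0.8 µM dexamethasone (13 in the main analysis), 0 to 1 at 2.5 µM (1) and 0 to 2 for dexamethasone 0.08 minus fluticasone propionate 0.19 µM (2). Leaving out the libraries of 1 letter gave 0 to 2 in the dexamethasone trend (1) and 0 to 1 in the fluticasone propionate trend (1). The cause was not tested. Calls over all genes in those fits are given above for 0.8 µM only, so these ranges are descriptions. Member counts at 25, 8 and 0.25 µM dexamethasone and 0.19 µM fluticasone propionate were 0 in the main analysis. Below, the share of all genes called in the same fit stands in brackets. With the reads outside genes as a covariate, dexamethasone gave 2 members at 25 µM (1.98%), 1 at 8 µM (0.332%), and 0 at both 2.5 µM (0.138%) and 0.8 µM (0.0221%). That fit gave 1 at 0.19 µM fluticasone propionate (0.436%), 3 and 2 in the dexamethasone and fluticasone propionate trends (2.93% and 2.37%), and 0 in the 0.08 minus 0.19 µM difference (0.339%). Without the 7 libraries over 30% outside genes, chosen after seeing the data, there were 2 members at 25 µM dexamethasone (1.74%), 8 at 2.5 µM (0.623%) and 7 at 0.8 µM (0.994%), with 3 in its trend (2.28%) and 0 in the difference (0.153%). With only the 6 compared libraries 2 were called at 25 µM dexamethasone (2.58%), 19 members at 2.5 µM (2.52%), then 18 at 0.8 µM (3.70%) and 7 at 0.25 µM (1.94%), with 2 at 0.19 µM fluticasone propionate (0.810%) and 0 in the difference (0.400%). Without the filter on low counts dexamethasone gave 1 at 8 µM (0.5%), 5 members at 2.5 µM (0.5%), then 20 at 0.8 µM (2.44%) and 3 at 0.25 µM (0.455%), with 2 at 0.19 µM fluticasone propionate (0.439%) and 4 in the difference (0.809%). DESeq2 gave 1 at 0.19 µM fluticasone propionate (0.302%) and 2 in each trend (2.49% for dexamethasone, 1.86% for fluticasone propionate), and its size factors in edgeR gave 1 at 0.19 µM (0.263%). Without the highest concentration both trends gave 0 (0.450% for dexamethasone, 0.190% for fluticasone propionate). With the replicate block the counts were 24 at 0.8 µM dexamethasone (4.69%), 2 at 2.5 µM (0.443%), 1 at 0.25 µM (0.382%), 3 in its trend (2.40%) and 1 at 0.19 µM fluticasone propionate (0.341%). Not every same-letter pair of libraries correlated, so the letters were not taken to pair the samples: over the 108 pairs of each compound the correlation ran from -0.101 to 0.467 with a median of 0.017 for dexamethasone (31 over 0.1), and from -0.239 to 0.435 with a median of 0.037 for fluticasone propionate (28 over 0.1). These correlations are over many genes. For the members, library A had the lowest share of gene reads in each dexamethasone group from 0.025 to 25 µM. Library C had the lowest at 0.008 µM and in DMSO, and with fluticasone propionate the lowest letter varied among groups. A shift shared by letter in the members was not tested. Over all genes 447 were called at 0.8 µM dexamethasone, beside 4 with the covariate, 190 without the libraries over 30%, 601 with the 6 compared libraries, 703 without the filter and 847 with the block. At 1316614 to 2097358 reads per library the members near the minimum, such as sdhaf3, were measured from few reads. Of 971 values of single genes under these alternatives 872 kept their direction and side of the threshold, 85 lost the call, 14 gained it and 0 reversed. The 872 can include values called in neither fit, so they are not a rate at which calls held.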
